A study of Mus musculus with 6 samples.

Results

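The genes described here are 10 members of the ATF4 stress response, also called the integrated stress response, among 56689 identifiers listed for each library: Atf4, Ddit3, Trib3, Asns, Chac1, Sesn2, Ddit4, Nupr1, Atf5 and Atf3. They were taken by gene symbol as a set of known pathway genes, with earlier results of these data known. All 10 were listed and tested among 14661 genes. The libraries hold RNA of embryonic stem cells from C57BL/6 mice, in 3 wild-type libraries (WT) and 3 libraries of genotype Max-/- (Max-KO), with no treatment named in the labels. Max is the partner through which MYC proteins bind DNA. The labels do not say how Max was disrupted, whether the Max-KO cells are a single clone, or how the cells were cultured.

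When amino acids run short, or unfolded proteins, double-stranded RNA or haem deficiency are sensed, kinases phosphorylate the initiation factor eIF2. Most translation then slows, while the messenger RNA of Atf4 is translated more, because of upstream reading frames in its leader. The ATF4 protein, a basic leucine zipper (bZIP) factor, pairs with C/EBP proteins and activates genes of amino acid supply, of growth control through mTORC1, and of stress-induced death. The measurements here are of messenger RNA, so they do not report the ATF4 protein or the phosphorylation of eIF2. In stem cells, as in other dividing cells, ATF4 is known to sustain amino acid synthesis and uptake.

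ATF4 dimers bind the C/EBP-ATF response element (CARE), searched here as TGATGNAA on both strands. In RefSeq promoter windows of build GRCm38.p6, from 250 bases before to 50 bases after each annotated start, 5 of the 10 members held it: Trib3, Asns, Chac1, Nupr1 and Atf3. Over all 32851 windows of the same length the share was 3.97%. The 5 stretches are shown because these genes are members with the element next to their start. They are written on the gene's strand with the CARE in capitals, and shortened to 30 bases where an annotated exon overlaps.
Trib3 (chr2:152344028-152344057, minus strand): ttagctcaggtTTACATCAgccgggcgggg
Asns (chr6:7693214-7693243, minus strand): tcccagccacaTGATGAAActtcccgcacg
Nupr1 (chr7:126625562-126625591, minus strand): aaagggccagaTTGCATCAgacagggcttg
Chac1 (chr2:119350992-119351151, plus strand): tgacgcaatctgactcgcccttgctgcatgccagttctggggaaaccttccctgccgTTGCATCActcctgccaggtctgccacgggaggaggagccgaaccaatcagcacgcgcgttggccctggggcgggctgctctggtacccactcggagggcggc
Atf3 (chr1:191183424-191183583, minus strand): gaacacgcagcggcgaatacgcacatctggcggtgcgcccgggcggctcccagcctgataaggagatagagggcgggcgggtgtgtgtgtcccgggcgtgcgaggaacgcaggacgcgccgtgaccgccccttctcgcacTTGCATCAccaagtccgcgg

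Chac1, Nupr1 and Atf3 held the same 8 bases, TTGCATCA, on the strand opposite to that of TGATGNAA. The element began 193 bases before the start in Chac1, 110 before it in both Nupr1 and Atf3, 23 before it in Asns and at base 15 after it in Trib3. In Nupr1 and Atf3 this RefSeq start lies inside the gene span given below, and the outer end of that span was not searched. The windows of Atf4, Ddit3, Sesn2, Ddit4 and both windows of Atf5 held no TGATGNAA. The E-box bound by MYC-MAX dimers, searched as CACGTG, was in the window of Nupr1 alone among the members, 225 bases before its start, against 7.15% of all windows. The motifs share no bases where they occur together, and a match of letters is not a measured binding site.

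Levels are FPKM, fragments scaled by transcript length and by library depth, so genes can be compared per length. Summed FPKM split by group, at 743400 to 774400 in the WT libraries and 645200 to 658400 in the Max-KO libraries. Rescaling to TPM, used below, makes these sums equal. Identifiers at 1 FPKM or more numbered 12969 to 13323 in WT and 14919 to 15085 in Max-KO. Steps in the low values gave an estimated 20.9 to 28.4 M fragments per library. Across genes, the log2 correlation was 0.978 to 0.985 within a group and 0.8905 to 0.9085 between groups. For Max itself WT 1 to 3 gave 41.6, 50.2 and 42.3 FPKM, and Max-KO 1 to 3 gave 35.8, 39.6 and 43.4. These values overlap, and a gene-level value cannot reveal a deleted exon, so every direction is that of libraries labelled Max-KO. The 8 embryonic stem cell markers summed to 4734 to 5372 FPKM in WT and 6604 to 7107 in Max-KO, a sum carried by Dppa5a (2510 and 4020 FPKM). Of these 8 markers 5 were called higher, Utf1 lower (265 and 149 FPKM), and Pou5f1 and Esrrb were not called. The 8 germ cell markers were all higher in Max-KO (34.7 to 40.3 FPKM summed in WT, 1035 to 1092 in Max-KO). So were 5 of 5 tested primitive endoderm markers of 8 (27.1 to 31.2 and 45.3 to 61.3) and 5 of 7 tested trophoblast markers of 8 (88.8 to 97.7 and 107 to 121). Over all genes 43.0% were called higher and 23.2% lower. When quantile normalized, 7 stem cell, 3 endoderm and 3 trophoblast markers were higher, with 1 stem cell and 1 trophoblast marker lower. With median-ratio factors 4 stem cell, 5 endoderm and 4 trophoblast markers were higher. All 8 germ cell markers stayed higher under both. Tex101 and Taf7l of the germ cell list, Gata4, Sox17 and Pdgfra of the endoderm list and Elf5 and Gata3 of the trophoblast list were tested only through their Max-KO means, which fixed their direction. The 10 fibroblast markers summed to 10.2 to 11.3 FPKM in WT and 8.91 to 10.9 in Max-KO, with 7 under 1 FPKM in all libraries, and no marker of any of these lists was at 0 in every library. The part of these cell type markers in the results below was not tested, and in bulk RNA fewer cells of a type and less RNA per cell cannot be told apart.

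Of the 10 members 8 fell in Max-KO and none rose, and Ddit3 and Atf5 did not pass the test (limma, adjusted p under 0.05). Over all 14661 genes tested, 23.2% were called lower and 43.0% higher. Of the members 5, Nupr1, Ddit4, Chac1, Trib3 and Atf4, fell by at least 1 on the log2 scale, against 4.86% of all genes. The groups did not overlap for 9 members, each with Max-KO below WT, against 25.7% of all genes, or 72.0% without overlap in either direction. Atf3, among the 8 and the 9, was tested only through its WT mean, which fixed its direction. The members were chosen with earlier results of these data known, so these counts describe the set and do not test it. Differences are Max-KO minus WT of log2(FPKM + 1), and the median was −1.08 over the members and 0.21 over all genes. That last value moved with the scaling: it was −0.01 with median-ratio factors, 0.41 as TPM and −0.04 when quantile normalized. The calls over all genes split as 64.9% higher, or 47.5%, 76.9% and 45.3% under these 3 scalings.

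**Figure D1:**
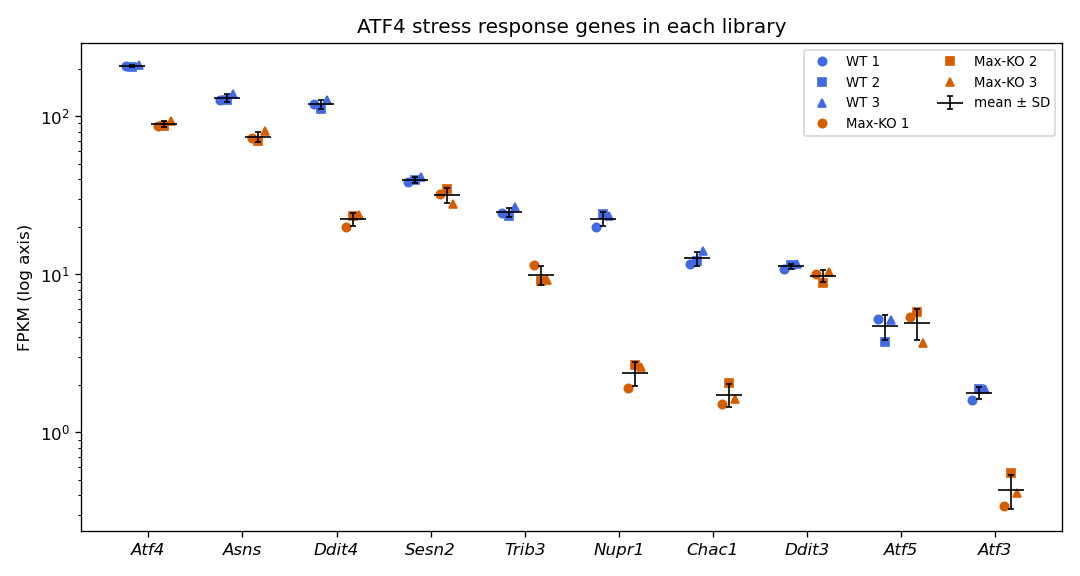
FPKM on a log axis for the 10 members in each library, WT in blue and Max-KO in orange, symbols marking replicates 1 to 3, with black bars for the mean ± SD of 3 libraries. The orange points lie below the blue ones for every member but Atf5, and the gap is widest for Nupr1 and Chac1.

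Atf4 (ENSMUSG00000042406; GRCm38 chromosome 15, 80255184 to 80257541, plus strand), the factor after which the response is named, had the highest level of the members in both groups. WT 1 to 3 gave 209, 204 and 210 FPKM, and Max-KO 1 to 3 gave 87.2, 86.8 and 93.3. The WT libraries lay close together and all Max-KO libraries lay far below them, at 42.9% of the WT mean (208 ± 2.79 and 89.1 ± 3.62 FPKM, SD, n = 3). The log2 difference was −1.21 ± 0.05 (SE, 95% interval −1.33 to −1.09, limma adjusted p = 4.21e-06), with 3.10% of all genes lower still.

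The other bZIP factors of the set did not follow 1 course. Ddit3 (ENSMUSG00000025408; chromosome 10, 127290774 to 127296288, plus strand) encodes CHOP, which forms dimers with C/EBP proteins and is known for its part in stress-induced death. Its FPKM values were 10.8, 11.4 and 11.6 for WT 1 to 3, then 10.1, 8.77 and 10.4 for Max-KO 1 to 3. The groups did not overlap, but by a narrow gap, and the log2 difference of −0.20 ± 0.09 missed the threshold (SE, 95% interval −0.40 to 0.01, limma adjusted p = 0.0829). It passed under median-ratio scaling (−0.43, limma adjusted p = 0.00515) and quantile normalization (−0.51, limma adjusted p = 0.00293), and the difference was −0.0003 after rescaling to TPM (limma adjusted p = 0.998). A second identifier with the same symbol, ENSMUSG00000116429, shares 105 exonic bases (6.13%) with the gene on the same strand. It was listed at 0 in all 6 libraries. Of the exonic bases of Ddit3 3.97% also lie in the opposite-strand gene Mars, which was at 130 FPKM in WT and 76.4 in Max-KO. Whether the counting used strand is unknown from the labels.

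Atf5 (ENSMUSG00000038539; chromosome 7, 44812256 to 44816658, minus strand), a bZIP factor also controlled at translation and linked to mitochondrial stress, was low. WT 1 to 3 stood at 5.21, 3.73 and 5.14 FPKM, and Max-KO 1 to 3 at 5.37, 5.74 and 3.70. Each group had 1 library below 4 FPKM, WT 2 and Max-KO 3, and the groups overlapped. The log2 difference was 0.05 ± 0.18 (SE, limma adjusted p = 0.802), and its 95% interval of −0.36 to 0.47 leaves room for a change either way. The sign turned with the scaling, to −0.16 with median-ratio factors and −0.38 when quantile normalized. Atf5 shares 4.11% of its exonic bases with Nup62 on the opposite strand, a gene at 92.0 FPKM in WT and 65.4 in Max-KO.

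Atf3 (ENSMUSG00000026628; chromosome 1, 191170296 to 191218039, minus strand), a bZIP factor that many stresses induce, had the lowest level of the set. Its values were 1.59, 1.87 and 1.87 FPKM for WT 1 to 3, then 0.34, 0.55 and 0.41 for Max-KO 1 to 3. Every Max-KO library was below every WT library, and the Max-KO mean was 24.4% of the WT mean. The log2 difference was −0.95 ± 0.12 (SE, limma adjusted p = 4.45e-04), and −1.83 with a pseudocount of 0.1, since a pseudocount of 1 understates changes at such levels. Atf3 was kept for testing only through its WT mean, which fixed its direction. Its Max-KO values stood for at most about 18.1 to 25.1 fragments per library, so counting error is large there.

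Chac1 and Trib3, targets of both ATF4 and CHOP, fell. Chac1 (ENSMUSG00000027313; chromosome 2, 119351229 to 119354381, plus strand) encodes an enzyme that degrades glutathione. WT 1 to 3 held 11.6, 12.2 and 14.1 FPKM, and Max-KO 1 to 3 held 1.52, 2.05 and 1.63. This was a drop to 13.7% of the WT mean without overlap, with a log2 difference of −2.32 ± 0.12 (SE, limma adjusted p = 8.93e-06), and 36 genes tested had a lower one. Trib3 (ENSMUSG00000032715; chromosome 2, 152337422 to 152344032, minus strand), a pseudokinase that binds ATF4 and CHOP and dampens the response, had 24.4, 23.3 and 26.6 FPKM in WT 1 to 3. The Max-KO values were 11.5, 9.07 and 9.15 FPKM, with Max-KO 1 the highest of its group and still far below WT. Its log2 difference was −1.24 ± 0.11 (SE, limma adjusted p = 6.90e-05), close to that of Atf4.

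Asns (ENSMUSG00000029752; chromosome 6, 7675169 to 7693254, minus strand), asparagine synthetase and a classical target of amino acid shortage, fell less than Atf4. WT 1 to 3 reached 127, 127 and 139 FPKM, and Max-KO 1 to 3 reached 72.6, 69.5 and 80.7. The groups were well apart, and replicate 3 was the highest in each. Max-KO kept 56.8% of the WT mean, and the log2 difference was −0.81 ± 0.07 (SE, limma adjusted p = 8.27e-05).

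The 2 inhibitors of mTORC1 differed in size of change. Ddit4 (ENSMUSG00000020108; chromosome 10, 59949669 to 59951834, minus strand), also known as REDD1, acts on mTORC1 through the TSC complex. WT 1 to 3 had 119, 111 and 128 FPKM, and Max-KO 1 to 3 had 19.8, 23.5 and 23.7. No Max-KO library came near a WT library, and the log2 difference was −2.37 ± 0.09 (SE, limma adjusted p = 3.10e-06). Sesn2 (ENSMUSG00000028893; chromosome 4, 132492032 to 132510501, minus strand), a leucine sensor that restrains mTORC1 through GATOR2, was 38.1, 39.4 and 41.1 FPKM in WT 1 to 3. In Max-KO 1 to 3 it was 32.2, 34.6 and 28.0 FPKM, so the groups stood apart by a small margin at 80.0% of the WT mean. Its log2 difference of −0.32 ± 0.09 passed (SE, limma adjusted p = 0.0133), but not after rescaling to TPM (−0.11, limma adjusted p = 0.288).

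Nupr1 (ENSMUSG00000030717; chromosome 7, 126623249 to 126630861, minus strand), a small nuclear protein induced by many stresses, fell the most of the members. WT 1 to 3 measured 19.8, 24.2 and 23.5 FPKM, and Max-KO 1 to 3 measured 1.90, 2.66 and 2.59, with replicate 1 the lowest in each group. Max-KO held 10.6% of the WT mean, the log2 difference was −2.80 ± 0.13 (SE, limma adjusted p = 5.89e-06), and 17 of all genes tested had a lower one.

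**Figure D2:**
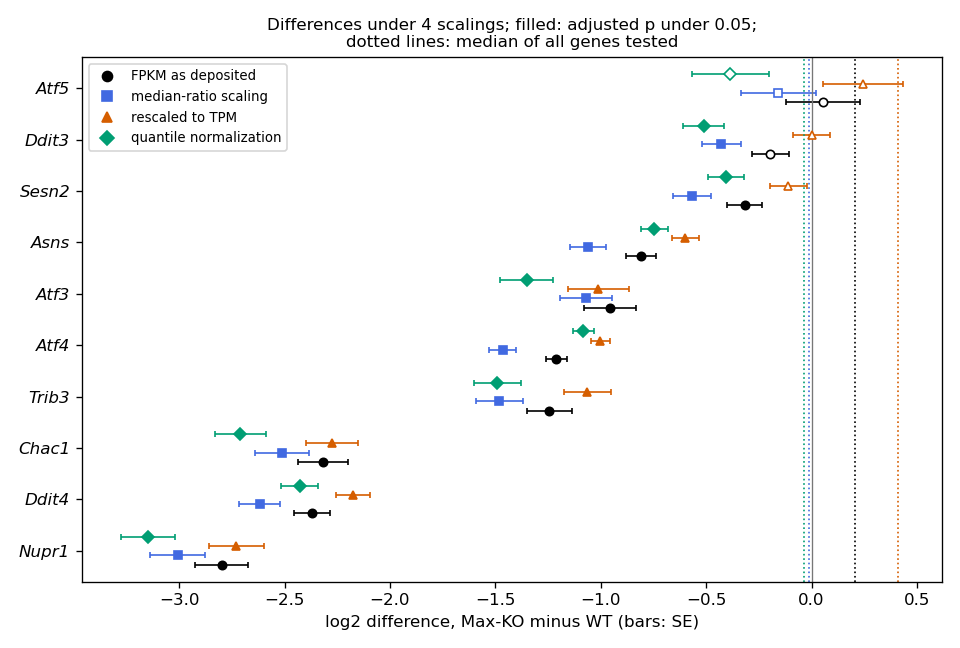
Log2 difference of each member (Max-KO minus WT, bars for the SE) with FPKM as deposited and under 3 scalings. Filled symbols passed an adjusted p under 0.05, and dotted lines mark the median of all genes. Asns, Atf3, Atf4, Trib3, Chac1, Ddit4 and Nupr1 are filled under all 4, Sesn2 and Ddit3 under some, and Atf5 under none.

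The order of levels differed between the groups. In WT it ran Atf4, Asns, Ddit4, Sesn2, Trib3, Nupr1, Chac1, Ddit3, Atf5 and Atf3, from 208 to 1.78 FPKM. The neighbours Asns and Ddit4, Trib3 and Nupr1, and Chac1 and Ddit3 overlapped over the 3 libraries. In Max-KO the order was Atf4, Asns, Sesn2, Ddit4, Trib3, Ddit3, Atf5, Nupr1, Chac1 and Atf3, from 89.1 to 0.433 FPKM, where Trib3 overlapped Ddit3 and Nupr1 overlapped Chac1. Nupr1 and Chac1 thus stood above Ddit3 and Atf5 in WT and below both in Max-KO. The SD between libraries was 1.34% of the mean for Atf4 in WT and reached 17.8% for Atf5, and in Max-KO it ran from 4.06% for Atf4 to 24.7% for Atf3.

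A plain ratio to Atf4 within a library is not changed by a scaling factor for that library. Ddit4 was 56.9%, 54.5% and 60.9% of the Atf4 level in WT 1 to 3 and 22.7%, 27.0% and 25.4% in Max-KO 1 to 3. Nupr1 went from 9.47%, 11.8% and 11.2% to 2.18%, 3.06% and 2.78%, and Chac1 from 5.56%, 5.96% and 6.71% to 1.74%, 2.36% and 1.75%. These 3 genes were lower relative to Atf4 in every Max-KO library. The reverse held for Asns (60.7%, 62.0% and 66.2%, then 83.3%, 80.1% and 86.6%) and Sesn2 (18.3%, 19.3% and 19.6%, then 37.0%, 39.8% and 30.0%). Ddit3 also stood higher relative to Atf4, at 5.19%, 5.56% and 5.55% in WT and 11.6%, 10.1% and 11.1% in Max-KO, as did Atf5 (1.83% to 2.50% and 3.97% to 6.61%). Trib3 overlapped, at 11.7%, 11.4% and 12.7% in WT and 13.2%, 10.4% and 9.81% in Max-KO.

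As log2 ratios of FPKM + 1, the change relative to Atf4 was −1.59 for Nupr1, −1.16 for Ddit4 and −1.11 for Chac1. It was 1.27 for Atf5, 1.02 for Ddit3, 0.89 for Sesn2, 0.40 for Asns and 0.26 for Atf3, and −0.03 for Trib3. With 3 libraries against 3 the exact permutation test (two-sided) cannot go below 0.10, which is what each of these genes but Trib3 reached (p = 0.80), or 0.1125 adjusted over the 9 ratios. The sign for Atf3 turned with the pseudocount, to −0.61 at 0.1, and its plain ratio was 0.762%, 0.915% and 0.892% in WT and 0.390%, 0.633% and 0.440% in Max-KO.

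**Figure D3:**
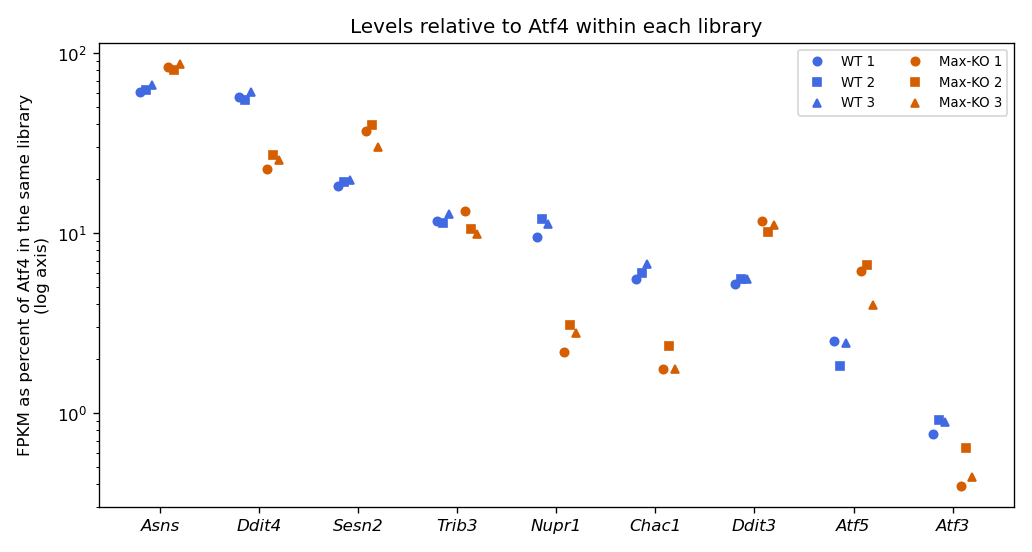
FPKM of the other 9 members as a percent of Atf4 in the same library, on a log axis, WT in blue and Max-KO in orange with symbols for replicates 1 to 3. Ddit4, Nupr1, Chac1 and Atf3 lie lower in Max-KO, Asns, Sesn2, Ddit3 and Atf5 higher, and Trib3 overlaps.

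Over the 6 libraries the log2 values of Ddit4, Nupr1, Chac1, Asns, Atf3 and Trib3 correlated with those of Atf4 at 0.979 to 0.998 (Pearson r), Sesn2 at 0.840, Ddit3 at 0.821 and Atf5 at −0.161. Such values mainly carry the gap between the groups: 514 genes tested, Atf4 included, had r over 0.99. The 3 genes outside the set most like Atf4 by this measure were Mta1 (42.5 to 18.6 FPKM), Klhl13 (278 to 20.8) and Slc16a1 (48.8 to 16.4), with r of 0.9997, 0.9997 and 0.9996.

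Among the eIF2 kinases, eIF2, its exchange factor and other genes of eIF2 control, more were called lower than higher. The other genes were Gcn1l1, Impact, Ppp1r15a, Ppp1r15b, Dele1 and Oma1, and Ppp1r15a also stands in the list of other response genes. Of 18 tested, 9 were lower and 4 higher, beside 23.2% and 43.0% of all genes. None of these changed by 1 or more on the log2 scale, and the median was −0.23 against 0.21 over all genes. Rescaled to TPM, 7 were lower and 6 higher, with median-ratio factors 13 and 1, and when quantile normalized 10 and 0. The falls were largest in Eif2s2 and Eif2s3x, subunits of eIF2 (402 to 220 and 138 to 96.0 FPKM), and in Eif2ak4, the kinase GCN2 that senses uncharged tRNA. Eif2ak4 went from 8.80 ± 0.0208 FPKM (SD, n = 3) to 4.84 ± 0.310, a log2 difference of −0.75 ± 0.08 (SE, limma adjusted p = 2.46e-04). The 4 higher genes were the other 3 kinases, named here after their values were seen, and Oma1, a mitochondrial protease that feeds into the response. Eif2ak1, the haem-regulated kinase, was 17.4 and 21.6 FPKM, Eif2ak2, the kinase PKR, 5.84 and 8.25, and Eif2ak3, the kinase PERK, 8.39 and 9.88. None of these 3 passed under median-ratio scaling or quantile normalization, where Eif2ak3 was at −0.02 and −0.12, and leaving out single libraries ended the calls of Eif2ak2 and Eif2ak3. Eif2ak3 was lost without any of WT 1, WT 2 and Max-KO 1 to 3 (limma adjusted p = 0.0680 to 0.112), and Eif2ak2 without Max-KO 2 (0.0878) or Max-KO 3 (0.0786). Oma1 went from 7.14 to 10.5 FPKM and did not pass under quantile normalization (limma adjusted p = 0.168).

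Among bZIP partners and relatives of ATF4, 8 of 18 tested rose and 3 fell, shares near the 43.0% and 23.2% of all genes. Their median was 0.15, against 0.21 over all genes. Under median-ratio scaling it was −0.06, and 7 rose and 6 fell. Fosl1, among the 8, was tested only through its Max-KO mean. The genes that fell were Cebpb, an ATF4 partner and target, Jund and Nfe2l2, the latter named after its values were seen. Cebpb averaged 4.08 ± 0.706 FPKM (SD, n = 3) in WT against 1.65 ± 1.07 in Max-KO, a log2 difference with a 95% interval of −1.66 to −0.34 (limma adjusted p = 0.0160). That call was lost without WT 3 (limma adjusted p = 0.0529) or Max-KO 1 (0.0537). Jund went from 53.1 to 29.0 FPKM, and the AP-1 gene Fos rose from 2.09 to 5.81. Nfe2l2 did not pass after rescaling to TPM (−0.02).

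Other known targets of ATF4 were mostly lower. In amino acid synthesis, one-carbon metabolism and amino acid transport 16 of 19 tested genes fell and 2 rose, with a median of −1.13. Over all genes 23.2% were lower and 43.0% higher, with a median of 0.21. Of the 16, 10 fell by at least 1 on the log2 scale, against 4.86% of all genes. Rescaled to TPM, 14 of the list were lower and 2 higher. Slc6a9, among the 16, was tested only through its WT mean, which fixed its direction. Psat1, the second enzyme of serine synthesis, went from 132 ± 7.47 FPKM (SD, n = 3) to 27.1 ± 1.14, a log2 difference of −2.24 ± 0.06 (SE, limma adjusted p = 1.21e-06), and Phgdh, the enzyme before it, had the largest fall of the list (−3.18 ± 0.13 SE). The glutamine carrier Slc1a5 fell from 48.5 to 10.6 FPKM. The 2 that rose were Cth, which makes cysteine from cystathionine (46.8 ± 1.54 FPKM, SD, n = 3, and 135 ± 14.4, limma adjusted p = 1.04e-05), and Slc7a3, a cationic amino acid carrier named after its values were seen (60.3 to 101 FPKM). Slc7a11, the cystine carrier often used as an ATF4 marker, was at 0.190 FPKM in WT and 0.170 in Max-KO and was not tested.

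All 12 tRNA synthetase genes known as ATF4 targets fell, beside 23.2% of all genes, with a median of −0.85. After rescaling to TPM 11 were lower. Sars went from 161 to 73.2 FPKM, Iars from 110 to 54.3 and Yars from 44.9 to 22.4. Of 21 other response genes 17 fell and 3 rose, beside 23.2% and 43.0% of all genes, with a median of −0.86. Rescaled to TPM, 15 of these 21 were lower and 3 higher. For Gdf15 and Adm2, among the 17, the filter fixed the direction, since only their WT means reached 1 FPKM. Stc2, a secreted glycoprotein, fell from 8.74 ± 0.442 FPKM (SD, n = 3) to 1.09 ± 0.237, or by 2.22 on the log2 scale (SE 0.12, limma adjusted p = 1.01e-05), Pck2, the mitochondrial PEPCK, from 17.6 to 4.12, and Herpud1, of endoplasmic reticulum protein degradation, from 12.5 to 3.24. The 3 that rose were Gadd45a (35.3 to 59.9 FPKM) and, named after their values were seen, Tnfrsf10b, the death receptor DR5 (12.2 to 19.6), and Kdm7a, whose rise was lost under quantile normalization (limma adjusted p = 0.0819). Lists overlap, so some genes count in more than 1.

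Of 23 genes of the ATF6 and XBP1 branch 10 were higher and 7 lower, beside 43.0% and 23.2% of all genes. The median was 0.06, against 0.21 over all genes. Under median-ratio scaling the balance turned, to 5 higher and 11 lower with a median of −0.16. Xbp1, the factor spliced by IRE1, fell to 42.8% of WT, while Derl3, of protein retrotranslocation, rose from 11.8 to 36.7 (log2 difference 1.56 ± 0.10 SE, limma adjusted p = 2.05e-05). Of 10 mitochondrial stress genes 7 fell and 2 rose, beside 23.2% and 43.0% of all genes, with a median of −0.32. Rescaled to TPM, 5 were lower and 2 higher (median −0.11), and under either other scaling 8 were lower and 1 higher. Hspd1 went from 487 to 189 FPKM, Hspe1 to 47.4% of its WT level and Clpp from 85.0 to 35.8. Hspd1 and Hspe1 overlap on opposite strands, so reads in the shared bases may belong to either. The 2 that rose were Yme1l1 (38.1 to 66.5) and Clpx, named after its values were seen and not passing under median-ratio scaling (0.02) or quantile normalization (0.05).

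Of 13 paralogs of the members tested 4 rose and 3 fell, shares to be set beside the 43.0% and 23.2% of all genes, with a median of 0.15 that was −0.08 with median-ratio factors and −0.31 (1 higher and 5 lower) when quantile normalized. Creb3l3, among the 3, was tested only through its WT mean. Chac2, which acts on glutathione like Chac1, averaged 3.20 ± 1.001 FPKM (SD, n = 3) in WT against 6.29 ± 0.931 in Max-KO (limma adjusted p = 0.00808), a rise lost under quantile normalization (0.36, limma adjusted p = 0.103). Ddit4l, the paralog of Ddit4, rose from 2.60 to 5.04 FPKM, while Trib2 fell from 2.85 to 1.54. The other genes called, named after their values were seen, were Sesn1 and Creb3l2 (higher) and Creb3l1 and Creb3l3 (lower), and each of these 4 lost its call under at least 1 scaling or without at least 1 library. Sesn1 was lost without WT 1, WT 2 or Max-KO 2 (limma adjusted p = 0.0515, 0.0541 and 0.0527), Creb3l1 without WT 1, Max-KO 1 or Max-KO 2 (0.0768, 0.0524 and 0.0655), and Creb3l3 without WT 1, WT 2, Max-KO 1 or Max-KO 2 (0.0534 to 0.0776).

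Among 19 regulators of mTORC1, the target of Ddit4 and Sesn2, 10 were higher and 3 lower, beside 43.0% and 23.2% of all genes. Their median was 0.16, against 0.21 over all genes. The balance moved to 7 higher and 6 lower with median-ratio factors (median −0.09) and turned to 5 higher and 9 lower when quantile normalized (median −0.03). Castor1, the arginine sensor that restrains mTORC1, fell from 50.8 ± 6.21 FPKM (SD, n = 3) to 18.7 ± 0.245, a log2 difference of −1.39 ± 0.09 (SE, limma adjusted p = 2.14e-05), and Nprl3, a GATOR1 subunit, rose from 12.2 to 23.5. The other 2 that fell, Akt1s1 and Mios, were named after their values were seen and did not pass after rescaling to TPM. Akt1s1 was also lost without WT 2, WT 3 or Max-KO 1 (limma adjusted p = 0.0573, 0.0533 and 0.0586), and Mios without WT 1, WT 2 or Max-KO 2 (0.0799, 0.0625 and 0.0749).

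**Figure D4:**
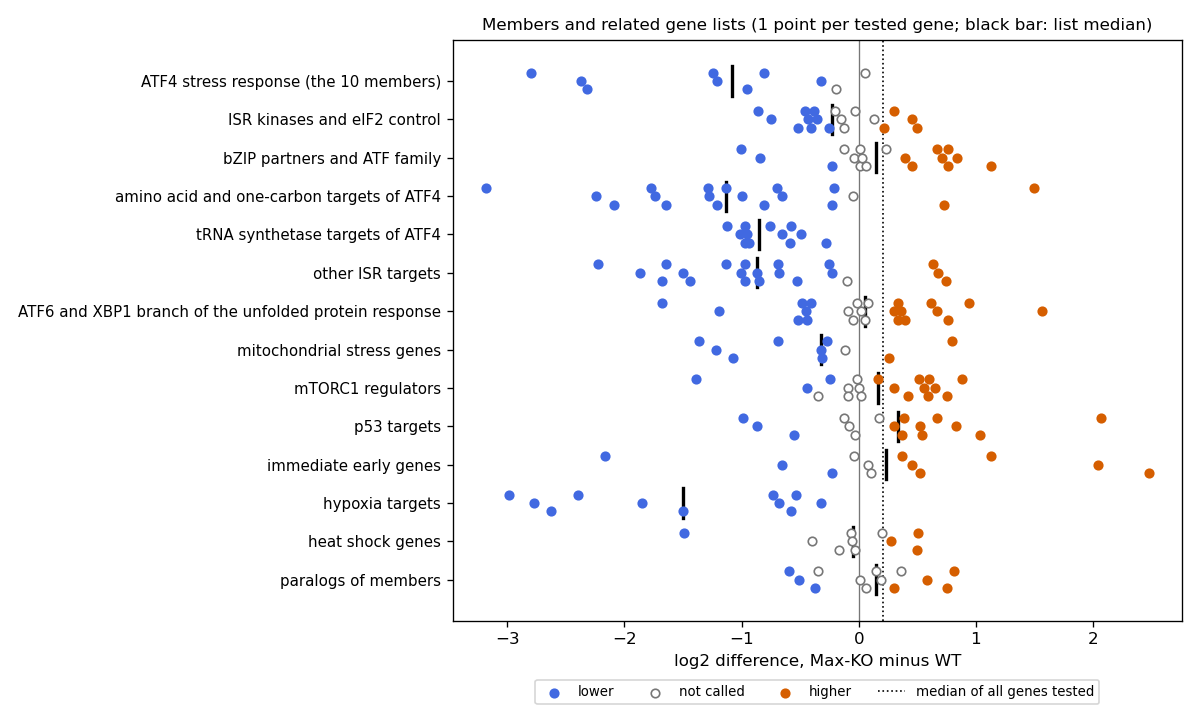
Log2 difference (Max-KO minus WT) of each tested gene of the 10 members and of 13 related lists, with blue for called lower, orange for called higher and open for not called, black bars for list medians and a dotted line for the median of all genes. The members and the amino acid, tRNA synthetase and other response lists have medians from −1.13 to −0.85, hypoxia targets stand lower still, and the ATF6 and XBP1, mTORC1 and paralog lists lie near the line for all genes.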

How the data were processed

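The submitters' processing notes name DESeq 1.26.0, RSEM, HISAT2 2.1.0 and FastQC, and the build GRCm38.p6, without their roles. The authors deposited 1 FPKM value per identifier and library, 56689 in each, of which 55536 were Ensembl genes, and all of these had a symbol in GENCODE M21. The headerless files do not name the unit, which was taken from the values. The depth is not stated: 84.1% to 88.2% of low values in genes of 1 transcript lay within 0.15 of a whole multiple of a step per library, and both the step and a length offset of 260 bases were chosen to fit these values.

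A gene was tested where either group's mean reached 1 FPKM (14661 genes, assembled loci left out). The model on log2(FPKM + 1) used limma 3.58.1 (R 4.3.3) with genotype as the factor, trend and robust moderation and two-sided tests, with Benjamini-Hochberg adjustment over all genes and calls under 0.05; every limma adjusted p comes from such a fit, while the p-values of the 9 ratios to Atf4 were adjusted over those ratios. The fit was also run on simulated data in which 12766 of 12966 genes had no planted change, while 66.2% of genes were called in these libraries. No result above rests on that run. Other steps used pandas 2.3.3, numpy 2.4.6 and scipy 1.17.1 (Python 3.11.15). The labels do not say whether replicate libraries are separate cultures; p-values then measure only the spread between these libraries, which may be technical. No transcript of a gene with another symbol shared 100 or more bases at 90% identity with a member (blastn 2.17.0). The second identifier of Ddit3 has the same symbol and was not counted there. Alternatives were another pseudocount, no filter, 3 scalings, a replicate block, plain limma and leaving out each library.

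Members, lists and tests were chosen with earlier results of these data known. Named were all members, the 3 largest called differences of each list with the largest of the opposite direction, the 3 genes most correlated with Atf4, and genes marked as named after their values were seen. Named outside this rule were Slc7a11, Vegfa, Ero1l, Max and cell type markers. So were genes overlapping a member, genes kept through the mean of a single group, and genes given only as parts of a list. Promoter sequences came from RefSeq (GRCm38.p6), which held windows for all 10 members.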

Additional observations from a re-analysis of the deposited data

How the results depend on the processing

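Asns, Atf3, Atf4, Chac1, Ddit4, Nupr1 and Trib3 kept their direction and call under all 13 alternatives. The number of members called lower was 8, with 7 on the TPM scale, 9 under either of the other scalings, and 8 without any single library. Over all genes 6300 were called higher, 5783 to 6102 without 1 library and 4174 under quantile normalization. Signs turned for Atf5 (−0.16 under median-ratio scaling, −0.38 under quantile normalization, −0.0742 to 0.2138 without 1 library), Eif2ak3 (−0.0172 and −0.12 under the same scalings), Sesn1 (−0.0263 under quantile normalization) and the ratios to Atf4 of Trib3 (−0.1495 to 0.0495 without 1 library) and Atf3 (−0.61 with a pseudocount of 0.1). The ratios of Chac1 and Nupr1 moved to −1.58 and −1.98 with that pseudocount. The cause was not tested.

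With a replicate block 6203 genes were called higher and 3282 lower, and 8 members stayed lower. Same-numbered libraries of the groups deviated together with correlations of −0.0006, 0.016 and 0.0855, and not every library correlated best with its own number, so the numbers were not taken as pairs. With that block Creb3l3 (limma adjusted p = 0.0545) and Eif2ak3 (0.0793) lost their calls. Depth limits Atf3 (18.1 to 93.6 fragments at most per library), Atf5 (166 to 264) and, in Max-KO, Chac1 (61.4 to 75.7) and Nupr1 (118 to 185).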

Other observations

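Other stress programs from the lists behaved differently from each other. All 11 tested hypoxia targets fell, beside 23.2% of all genes, and 10 did after rescaling to TPM. Their median was −1.498, against 0.21 over all genes, which is −1.71 relative to that of all genes. Bnip3, a mitophagy receptor, went from 119 ± 1.57 FPKM (SD, n = 3) to 14.4 ± 3.64, or by −2.98 ± 0.16 on the log2 scale (SE, limma adjusted p = 1.36e-05), Ankrd37 from 45.5 to 6.25 and the peptide hormone gene Adm from 6.39 to 0.190. Adm was tested only through its WT mean, which fixed its direction. Ddit4, which hypoxia also induces, fell with them, and Vegfa and Ero1l stand in both this list and that of other ATF4 response genes.

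The counts of this paragraph are to be set beside the 43.0% higher and 23.2% lower of all genes, with a median of 0.21. Of 16 p53 targets 9 rose and 3 fell, with a median of 0.34. With median-ratio factors 6 rose and 6 fell (median 0.10), and 6 and 4 when quantile normalized. Pmaip1, the death gene NOXA, rose from 29.2 ± 2.72 FPKM (SD, n = 3) to 125 ± 1.34, or by 2.07 ± 0.07 on the log2 scale (SE, limma adjusted p = 3.04e-06), and Perp from 14.7 to 31.2. The 3 that fell were Tigar (23.8 to 11.5 FPKM) and, named after their values were seen, Bax and Bbc3. Of 12 immediate early genes 6 rose and 3 fell, with a median of 0.23 that was −0.0037 under median-ratio scaling. Egr1 rose from 6.93 ± 0.229 to 43.1 ± 0.895 FPKM (SD, n = 3) and Egr3 rose to 3.34 FPKM from 0.03 to 0.07 in the WT libraries, kept for testing only through Max-KO. Ier3 fell from 59.7 to 12.7 FPKM, and Ier5 and Ier2, named after their values were seen, also fell, Ier5 being tested only through its WT mean. Ier2 lost its call after rescaling to TPM and without Max-KO 2 (limma adjusted p = 0.0526). Of 10 heat shock genes 3 rose (Dnaja1, Hspb1 and, named after its values were seen, Hsph1) and Bag3 fell to 28.5% of its WT level, with a median of −0.05 that was 0.15 after rescaling to TPM. With median-ratio factors 1 gene was higher and 5 were lower, with Hspb1 and Hsph1 not passing, and when quantile normalized 4 were higher and 4 lower.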
